A study of Mus musculus with 10 samples.

Results

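The genes described here are the ER stress and integrated stress response genes of the mouse retina, a list of 40 genes that covers the sensors of the unfolded protein response, the ER chaperones and disulfide isomerases, ER-associated degradation and targets of ATF4. The genes were named by their roles, with no threshold on a measured value, but the list was proposed with earlier results of these data known. Of the 40 genes, 36 were among the 11702 genes of the deposited gene table, and Atf3, Sdf2l1, Trib3 and Chac1 were found only among the transcript counts.

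Secretory and membrane proteins fold in the endoplasmic reticulum (ER), and when unfolded proteins build up there, the sensors IRE1, PERK and ATF6 raise the supply of chaperones, clear misfolded proteins and slow translation. PERK and other kinases that phosphorylate eIF2alpha, such as GCN2, share their output, the integrated stress response, in which the transcription factor ATF4 is translated while most mRNAs are not. Rod photoreceptors make large amounts of rhodopsin and other membrane proteins for their outer segments, and the ER stress response is much studied in retinal degeneration.

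Retinas of female mice were profiled by poly(A) RNA-seq in 10 libraries, named W1 to W4 (WT, injected with DMSO), D1 to D3 (rd10, DMSO) and H1 to H3 (rd10, halofantrine, HAL). The rd10 mice, strain B6.CXB1-Pde6brd10/J, carry a mutation of Pde6b, the beta subunit of the rod phosphodiesterase, and lose their rods; the strain of the WT mice is not given in the sources used here. Every mouse received 1 µL into the vitreous at P10 and P24, of DMSO or of 20 µM halofantrine, an antimalarial drug, and retinas were collected at P36. By their labels D3, H2 and H3 form batch 2 and the other 7 libraries batch 1, so that no WT library is in batch 2. The sample names also carry a set: W1 to W3 share a set, W4 has a set of its own, D1, D2 and H1 share another, H2 and H3 another again, and D3 has its own. What the sets are is not stated. WT and rd10 share no set, so that set and genotype cannot be told apart, nor can set and treatment within batch 2. The labels do not state that each library is another mouse, so p-values measure the spread between these samples.

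The libraries held 15512212 (D3) to 38160436 (D2) estimated counts on genes, of which 0.360% to 0.417% fell on the 36 genes, and the lowest count of any of the 36 in any library was 194. The library labelled WT W4 stood apart from W1 to W3, with levels of Pde6b and rod markers that go against the label, and each value computed with W4 holds only if that label is right. In counts per 1000000 (CPM), Pde6b read 2699, 2850 and 2855 for W1 to W3, 93.1 for W4 and 125 to 387 for the rd10 libraries. The summed level of 16 rod markers was 89301 to 94032 CPM in W1 to W3, 3925 CPM in W4, 5133 to 13494 CPM in D1 to D3 and 4879 to 11381 CPM in H1 to H3. The 12 Müller glia markers summed to 4871 to 5070 CPM in W1 to W3, 9839 CPM in W4 and 8278 to 9967 CPM in the 6 rd10 libraries, and the 9 of 16 microglia markers in the table to 60.0 to 66.7 CPM in W1 to W3, 244.9 CPM in W4 and 234 to 277 CPM in the rd10 libraries. Marker sums of bipolar cells (2741 to 3285 CPM in the rd10 libraries against 1842 to 1933 CPM in W1 to W3), of amacrine and ganglion cells (2819 to 3284 against 2013 to 2093 CPM), of endothelium (495 to 679 against 276 to 305 CPM) and of gliosis (1683 to 2146 against 228 to 256 CPM) were higher in rd10. The sum of cone markers was 2842 to 2993 CPM in W1 to W3, 2264 to 2707 CPM in D1 to D3, below them, and 2343 to 2948 CPM in H1 to H3. Genes called without W4 are therefore also given with it, and other log2 differences from WT are without W4 unless stated.

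Some promoters of these genes carry elements through which the unfolded protein response acts, and a few are shown here because the results below return to them. The ER stress response element (ERSE), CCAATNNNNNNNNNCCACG, is bound by NF-Y together with ATF6 or XBP1. It was found, on either strand, in 8 of 37 RefSeq promoters of the list (250 bases before to 50 bases after the start, GRCm38.p6), against 0.119% of 32851 promoters of the same length in the genome. The 8 genes were Calr, Canx, Creld2, Dnajc3, Hsp90b1, Hspa5, Pdia6 and Syvn1. In the stretches below the element is in capitals, each stretch lies upstream of the start and reads along its gene, and in Calr, Creld2 and the second stretch of Hsp90b1 the element runs on the opposite strand.
Hspa5, chr2:34772010-34772058, plus strand: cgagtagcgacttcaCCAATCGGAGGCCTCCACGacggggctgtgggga
Hsp90b1, chr10:86705623-86705671, minus strand: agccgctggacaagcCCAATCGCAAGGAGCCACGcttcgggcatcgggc
Hsp90b1, chr10:86705518-86705566, minus strand: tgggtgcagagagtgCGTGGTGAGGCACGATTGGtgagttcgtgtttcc
Calr, chr8:84847060-84847108, minus strand: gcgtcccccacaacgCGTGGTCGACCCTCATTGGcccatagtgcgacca
Creld2, chr15:88819505-88819553, plus strand: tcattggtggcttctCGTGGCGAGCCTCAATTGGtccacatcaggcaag
Pdia6, chr12:17266476-17266524, plus strand: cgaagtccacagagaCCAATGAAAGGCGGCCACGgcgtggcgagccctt
Syvn1, chr19:6046517-6046565, plus strand: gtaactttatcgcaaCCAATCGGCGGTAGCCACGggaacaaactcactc

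The element began 65 bases before the start in Hspa5 and 44 bases before it in Syvn1, and Hsp90b1 alone among the 8 held 2 copies. A second form, ERSE-II (ATTGGNCCACG), was found in Herpud1 and Dnajb11, 2 of 37 promoters against 0.0365% of all promoters. The UPRE core TGACGTGG was found only in Vcp, 1 of 37 against 0.676%. The element bound by ATF4 with C/EBP proteins (CARE), TGATGNAA, was found in Asns, Atf3, Chac1, Herpud1 and Trib3, 5 of 37 against 3.97%. No match of one motif overlapped a match of another in these promoters. The upstream matches of Herpud1, which holds both kinds of element, of Asns and of Chac1 are shown, with the matched letters in capitals.
Herpud1, chr8:94386362-94386402, plus strand: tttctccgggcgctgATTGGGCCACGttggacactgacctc
Herpud1, chr8:94386302-94386339, plus strand: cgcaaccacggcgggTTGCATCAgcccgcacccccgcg
Asns, chr6:7693210-7693247, minus strand: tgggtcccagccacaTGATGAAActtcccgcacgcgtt
Chac1, chr2:119351034-119351071, plus strand: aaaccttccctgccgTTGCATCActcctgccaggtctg

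The table of promoters matched 35 of the 40 genes, and Atf6, Derl1, Hyou1, Manf and Ppp1r15b were not matched. A match of letters is a description of the sequence and not evidence of binding in the retina. The genes were listed for their roles in these responses, so a higher share of the elements than among all promoters is not an independent finding.

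The first comparison asked how the list differed between rd10 and WT retina under DMSO. Without W4, 18 of the 36 genes passed the test of edgeR at an adjusted p under 0.05, 5 higher and 13 lower in rd10, where 62.2% of 11696 genes did, 32.3% higher and 29.9% lower. The lower genes included the sensors Ern1 and Atf6, the transcription factors Atf4 and Ddit3, the chaperone Hsp90b1 and the degradation factor Edem2, and the higher genes were Asns, Dnajb9, Herpud1, Pdia3 and Sel1l. The median log2 difference of the 36 was -0.12, beside -0.01 over all genes, and it was -0.07 with W4 and -0.03 without W4 and D3. With W4 in the fit no gene was called (0% of 11698 genes and 0 of 36). At an unadjusted p under 0.05 the fit with W4 held 6 of the 36 (Creld2, Ddit3, Edem2, Ern1, Pdia3 and Pdia4), where 26.6% of all genes did, and DESeq2 called 1 of the 36, Pdia3, where it called 5.04% of all genes. All 18 genes kept their sign with W4, at log2 differences from -0.75 (Edem2) to 0.33 (Asns), and the smallest adjusted p of the 36 was then 0.187. The 18 genes that were not called without W4 had log2 differences from -0.18 to 0.27. W4 lay nearer the mean of the rd10 libraries than that of W1 to W3 in 34 of the 36 genes, all 18 called genes among them. The share of all genes for which this held is not given here, so the count cannot be read as particular to the list. The marker sums differ between the groups as given above, and in whole retina fewer cells of a type and less RNA per cell cannot be told apart; their part in these differences was not tested.

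**Figure D1:**
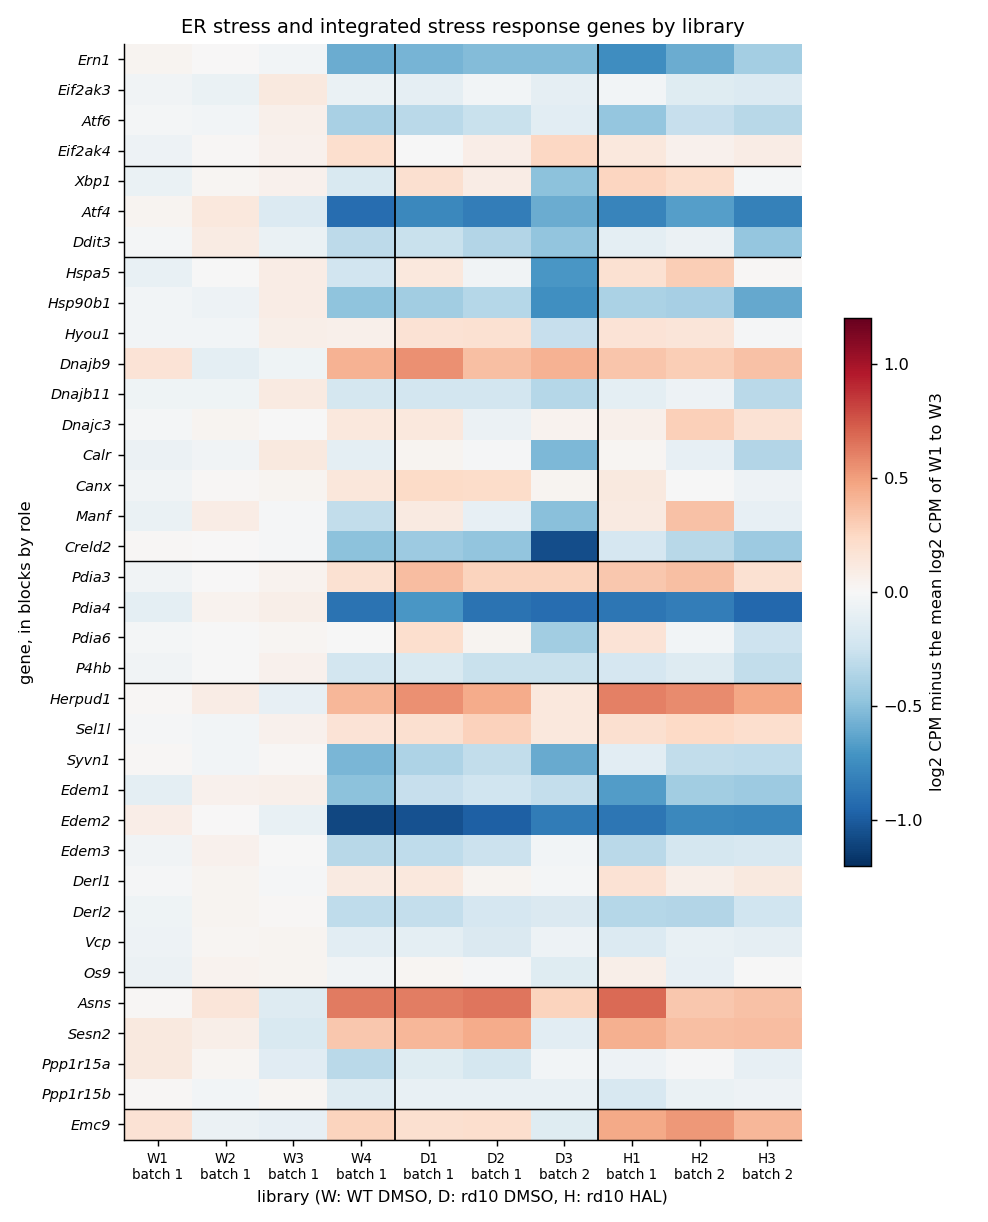
Heat map of the 36 genes (rows, in blocks by role) in the 10 libraries (columns), coloured by log2 CPM minus the mean log2 CPM of W1 to W3. The column W4 resembles the rd10 columns, with Atf4, Edem2 and Pdia4 low and Asns and Herpud1 high, and D3 is the darkest column among Hspa5, Creld2 and Calr.

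The sensors and eIF2alpha kinases were at moderate levels. Ern1 encodes IRE1, which splices Xbp1 mRNA, and it read 61.0, 59.9 and 58.5 CPM for W1 to W3, 39.7 CPM for W4, 40.7, 41.7 and 41.6 CPM for D1 to D3 and 35.7, 39.6 and 45.0 CPM for H1 to H3. All 6 rd10 libraries and W4 lay below W1 to W3. Without W4, Ern1 was lower in rd10 DMSO than in WT, with a log2 difference of -0.52 ± 0.06 (adjusted p = 0.000177), and with W4 the difference was -0.40 ± 0.16 (adjusted p = 0.187). Atf6, the sensor that is cut in the Golgi to release a transcription factor, stood at 130.4, 129.9 and 138 CPM for W1 to W3, 101 CPM for W4, 106, 111 and 121 CPM for D1 to D3 and 96.5, 109 and 106 CPM for H1 to H3. The rd10 libraries lay below W1 to W3 without overlap, and the log2 difference of Atf6 was -0.23 ± 0.07 (adjusted p = 0.0219) without W4 and -0.15 ± 0.13 (adjusted p = 0.39) with it. Scaled by library size alone it was -0.02 (adjusted p = 0.8) without W4, so its call rests on the scaling and on leaving out W4. The remaining pair, both kinases of eIF2alpha, did not pass the test. For Eif2ak3 (PERK) the libraries gave 47.9, 46.7 and 53.4 CPM for W1 to W3, 46.7 CPM for W4, 45.6, 48.1 and 45.8 CPM for D1 to D3 and 48.1, 44.5 and 43.9 CPM for H1 to H3. Its groups overlapped, and the log2 difference without W4 was -0.07 ± 0.07 (adjusted p = 0.399). Eif2ak4 (GCN2), which senses uncharged tRNA, gave 41.4, 43.5 and 44.8 CPM for W1 to W3, 49.5 CPM for W4, 42.9, 45.6 and 51.4 CPM for D1 to D3 and 47.0, 44.9 and 46.1 CPM for H1 to H3. D1 to D3 overlapped W1 to W3 while H1 to H3 lay above them, and the difference between DMSO libraries was 0.12 ± 0.08 (adjusted p = 0.242) without W4 and 0.06 ± 0.10 (adjusted p = 0.673) with it.

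Among the transcription factors, Atf4 showed the greatest difference. Atf4, the effector of the integrated stress response that is controlled mainly at translation, measured 232, 249 and 204 CPM for W1 to W3, 121 CPM for W4, 133, 129 and 151 CPM for D1 to D3 and 131, 144 and 129 CPM for H1 to H3. The lowest of W1 to W3 lay above the highest rd10 library, and W4 was the lowest of the 10 libraries. The log2 difference was -0.72 ± 0.10 (adjusted p = 0.000487) without W4 and -0.55 ± 0.24 (adjusted p = 0.188) with it. Ddit3 encodes CHOP, a factor downstream of ATF4 that can promote cell death, and its libraries showed 32.7, 35.7 and 31.5 CPM for W1 to W3, 26.8 CPM for W4, 27.6, 26.1 and 23.9 CPM for D1 to D3 and 30.7, 31.7 and 24.04 CPM for H1 to H3. D1 to D3 lay below W1 to W3, while H2 lay just above the lowest of them. Without W4 the difference of Ddit3 was -0.35 ± 0.09 (adjusted p = 0.0086), and with W4 -0.29 ± 0.12 (adjusted p = 0.187).

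Xbp1 encodes the factor whose mRNA is spliced by IRE1, and its level was 75.4, 80.9 and 82.7 CPM for W1 to W3, 70.0 CPM for W4, 90.9, 84.8 and 56.7 CPM for D1 to D3 and 95.2, 92.3 and 78.1 CPM for H1 to H3. D3 was the lowest of the 10 libraries while D1 and D2 were above W1 to W3, and the difference without W4 was -0.03 ± 0.16 (adjusted p = 0.899). IRE1 removes 26 bases from the mRNA, shown here because the ratio of forms with and without them is the usual readout of IRE1 activity.
Xbp1 intron removed by IRE1: CACTCAGACTATGTGCACCTCTGCAG

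The stretch was present in Xbp1-201, Xbp1-203 and Xbp1-204 of the GENCODE M21 transcripts, and no transcript there held the junction that splicing makes, so spliced Xbp1 was not analysed here. Xbp1-201, the full-length coding transcript, took 74.2%, 73.1% and 74.1% of the counts of the gene in W1 to W3, 81.8% in W4, 79.0%, 78.5% and 77.3% in D1 to D3 and 78.2%, 74.6% and 78.4% in H1 to H3. Its share was 4.47 percentage points higher in rd10 DMSO than in W1 to W3, with exact two-sided permutation p = 0.1, the smallest that 3 against 3 libraries allow, and 2.48 points higher with W4, with exact p = 0.371. Transcripts of Xbp1 that the reference did not hold took 0% to 1.64% of the counts in W1 to W3, 0.99% in W4 and 3.30% to 7.43% in the 6 rd10 libraries. What these transcripts are was not analysed here.

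Atf3, a stress-induced bZIP factor like Atf4, was measured from the counts of its 3 transcripts. On the scale of the gene table it was at 5.03, 4.74 and 6.07 CPM for W1 to W3, 4.31 CPM for W4, 5.94, 6.87 and 8.12 CPM for D1 to D3 and 4.78, 5.87 and 5.09 CPM for H1 to H3. D1 overlapped W3, and the means of 6.98 ± 1.09 CPM (SD, n = 3) in D1 to D3 and 5.04 ± 0.75 CPM (SD, n = 4) in W1 to W4 differed with exact two-sided permutation p = 0.0857. Without W4 the WT mean was 5.28 ± 0.70 CPM (SD, n = 3) and exact p = 0.2.

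Of the 10 ER chaperones, co-chaperones and lectins, 1 was higher and 3 were lower without W4, beside 32.3% and 29.9% of all genes, and their median was -0.13. Hspa5 encodes BiP, the main chaperone of the ER lumen and the usual marker of ER stress, and it stood at 246, 261 and 279.6 CPM for W1 to W3, 224 CPM for W4, 287, 255 and 161 CPM for D1 to D3 and 297, 323 and 264 CPM for H1 to H3. D3 was the lowest of the 10 libraries, and the other rd10 libraries lay within or above the range of W1 to W3. Hspa5 did not differ between rd10 DMSO and WT beyond its error, at -0.15 ± 0.19 (adjusted p = 0.513) without W4 and -0.11 ± 0.19 (adjusted p = 0.675) with it. Hsp90b1 (GRP94), the ER member of the HSP90 family, had the highest or second highest level per kilobase of the list in both genotypes. Its values were 508, 498 and 551 CPM for W1 to W3, 371 CPM for W4, 389, 408 and 311 CPM for D1 to D3 and 397, 394 and 339 CPM for H1 to H3. The groups without W4 did not overlap, and Hsp90b1 was then lower in rd10, with a log2 difference of -0.48 ± 0.11 (adjusted p = 0.00613) without W4 and -0.38 ± 0.16 (adjusted p = 0.188) with it.

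Creld2 encodes an ER protein that rises under ER stress, and it read 25.1, 25.0 and 24.7 CPM for W1 to W3, 17.7 CPM for W4, 18.4, 17.9 and 11.9 CPM for D1 to D3 and 21.7, 19.8 and 18.4 CPM for H1 to H3. W1 to W3 lay within a narrow range above all other libraries, and D3 was far below the rest. The log2 difference was -0.61 ± 0.15 (adjusted p = 0.0102) without W4 and -0.52 ± 0.20 (adjusted p = 0.187) with it. Dnajb11, a co-chaperone of BiP, was at 55.7, 55.7 and 62.1 CPM for W1 to W3, 49.8 CPM for W4, 49.7, 49.6 and 45.6 CPM for D1 to D3 and 53.3, 55.5 and 46.1 CPM for H1 to H3, and its log2 difference was -0.25 ± 0.07 (adjusted p = 0.0169) without W4 and -0.21 ± 0.09 (adjusted p = 0.189) with it. Dnajb9, a co-chaperone that restrains IRE1, went the other way: its D libraries held 35.9, 31.6 and 32.8 CPM and its H libraries 31.0, 30.2 and 31.4 CPM, beside 27.7, 22.6 and 23.8 CPM in W1 to W3 and 32.8 CPM in W4. Every rd10 library exceeded W1 to W3, and the difference was 0.45 ± 0.10 (adjusted p = 0.00535) without W4 and 0.32 ± 0.14 (adjusted p = 0.189) with it.

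The other 6 of this class were Hyou1, Dnajc3, Calr, Canx, Manf and, by transcripts only, Sdf2l1. Calr and Canx are the lectin chaperones that bind newly glycosylated proteins. Their log2 differences without W4 were -0.14 and 0.18. Hyou1 and Dnajc3, which serve the BiP cycle, and Manf, a secreted ER stress protein, gave 0.05, 0.05 and -0.13, and none of the 5 passed the test. Sdf2l1, an ER protein that acts with BiP and Dnajb11, measured 5.38, 4.74 and 3.87 CPM for W1 to W3, 3.96 CPM for W4, 5.90, 4.41 and 1.91 CPM for D1 to D3 and 5.81, 6.91 and 4.58 CPM for H1 to H3. Its D libraries enclosed the range of W1 to W4, with exact two-sided permutation p = 0.8, and p = 0.8 without W4 as well.

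The 4 protein disulfide isomerases, which form and shuffle the disulfide bonds of folding proteins, had 1 higher and 2 lower without W4, beside 32.3% and 29.9% of all genes. Pdia4 held 78.2, 87.5 and 89.1 CPM for W1 to W3, 46.0 CPM for W4, 52.2, 46.0 and 45.0 CPM for D1 to D3 and 46.5, 47.6 and 44.1 CPM for H1 to H3. Each of W1 to W3 lay above all other libraries, W4 among those, with a difference of -0.82 ± 0.08 (adjusted p = 0.00014) without W4 and -0.65 ± 0.23 (adjusted p = 0.187) with it. P4hb (PDI) was at 175, 180.1 and 186 CPM for W1 to W3, 155 CPM for W4, 159, 150.3 and 150.2 CPM for D1 to D3 and 157, 162 and 147 CPM for H1 to H3, with a difference of -0.23 ± 0.06 (adjusted p = 0.0088) without W4 and -0.19 ± 0.09 (adjusted p = 0.199) with it. Pdia3 (ERp57), the isomerase that works with the lectin chaperones, was the higher one: its D libraries held 163, 151 and 152 CPM and its H libraries 157, 161 and 143 CPM, beside 122, 126 and 129.5 CPM in W1 to W3 and 143 CPM in W4. The rd10 libraries lay above W1 to W3 without overlap, with a difference of 0.31 ± 0.06 (adjusted p = 0.00216) without W4 and 0.25 ± 0.08 (adjusted p = 0.187) with it. Pdia6 gave -0.02 ± 0.14 (adjusted p = 0.891).

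ER-associated degradation, by which misfolded proteins are drawn out of the ER, ubiquitinated and destroyed, had 2 higher and 4 lower of 10 genes without W4, close to the 62.2% of all genes called. Edem2 starts the trimming of mannose on glycoproteins bound for degradation, and of the 36 genes it had the smallest p. It read 69.3, 65.8 and 61.7 CPM for W1 to W3, 30.8 CPM for W4, 31.7, 33.2 and 36.7 CPM for D1 to D3 and 35.9, 38.2 and 38.1 CPM for H1 to H3. W1 to W3 lay far above the other 7 libraries, and the difference was -0.95 ± 0.08 (adjusted p = 6.87e-05) without W4 and -0.75 ± 0.27 (adjusted p = 0.187) with it. Edem1, a related mannosidase-like factor, was at 23.9, 26.8 and 27.0 CPM for W1 to W3, 18.3 CPM for W4, 21.3, 22.0 and 21.2 CPM for D1 to D3 and 16.3, 19.4 and 19.1 CPM for H1 to H3, with a difference of -0.26 ± 0.08 (adjusted p = 0.0217) without W4 and -0.16 ± 0.15 (adjusted p = 0.428) with it. The third of the family, Edem3, gave -0.18 ± 0.08 (adjusted p = 0.086).

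The ubiquitin ligase of the pathway and its partner moved in opposite directions. Syvn1 (HRD1), the ligase, stood at 76.3, 74.0 and 76.1 CPM for W1 to W3, 51.7 CPM for W4, 58.5, 61.7 and 49.5 CPM for D1 to D3 and 68.9, 61.7 and 61.1 CPM for H1 to H3. All rd10 libraries lay below W1 to W3, with a difference of -0.40 ± 0.09 (adjusted p = 0.00466) without W4 and -0.30 ± 0.16 (adjusted p = 0.214) with it. Sel1l, the adaptor that stabilises HRD1, had 154, 152 and 162 CPM for W1 to W3, 175 CPM for W4, 178, 189 and 170.2 CPM for D1 to D3 and 179, 184 and 179 CPM for H1 to H3. Its rd10 libraries lay above W1 to W3 and the difference was 0.21 ± 0.06 (adjusted p = 0.0183) without W4 and 0.16 ± 0.09 (adjusted p = 0.222) with it. Herpud1, another component of the HRD1 complex and a gene with ERSE-II and CARE in its promoter, showed 68.3, 71.7 and 63.1 CPM for W1 to W3, 89.4 CPM for W4, 98.9, 91.9 and 73.6 CPM for D1 to D3 and 103, 100.3 and 93.3 CPM for H1 to H3. All rd10 libraries exceeded W1 to W3, D3 only by a little, and the difference was 0.39 ± 0.11 (adjusted p = 0.0171) without W4 and 0.27 ± 0.15 (adjusted p = 0.225) with it.

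Derl2, a derlin of the retrotranslocation complex, was at 33.0, 34.9 and 34.3 CPM for W1 to W3, 27.6 CPM for W4, 27.9, 29.6 and 30.3 CPM for D1 to D3 and 26.9, 26.6 and 28.9 CPM for H1 to H3, with a difference of -0.21 ± 0.07 (adjusted p = 0.0317) without W4 and -0.15 ± 0.11 (adjusted p = 0.318) with it. Derl1, Vcp (the ATPase that extracts substrates) and Os9 (a lectin that recognises them) gave 0.06, -0.10 and -0.04 and did not pass the test.

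Of the ATF4 targets and the subunits that bring the phosphatase to eIF2alpha, 1 of 4 in the gene table passed the test without W4, where 62.2% of all genes did. Asns, asparagine synthetase, is a classical ATF4 target with CARE in its promoter. Its libraries gave 40.1, 44.0 and 35.6 CPM for W1 to W3, 61.2 CPM for W4, 60.7, 62.1 and 47.9 CPM for D1 to D3 and 63.8, 49.9 and 50.8 CPM for H1 to H3. All rd10 libraries exceeded W1 to W3, and Asns was higher without W4, with a difference of 0.52 ± 0.12 (adjusted p = 0.00678) without W4 and 0.33 ± 0.19 (adjusted p = 0.245) with it, whereas Atf4 mRNA was lower. Sesn2, a stress-induced regulator of mTORC1, gave 0.27 ± 0.16 (adjusted p = 0.173). Ppp1r15a (GADD34) and Ppp1r15b (CReP), the inducible and the constitutive phosphatase subunit, gave -0.13 and -0.08, neither past the test.

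Trib3 and Chac1, targets of ATF4 and CHOP, were measured from transcripts. Trib3, a pseudokinase, was at 5.36, 6.25 and 5.25 CPM for W1 to W3, 3.60 CPM for W4, 2.50, 3.46 and 2.58 CPM for D1 to D3 and 3.59, 3.46 and 3.38 CPM for H1 to H3. D1 to D3 lay below W1 to W4, with 2.85 ± 0.53 CPM (SD, n = 3) against 5.12 ± 1.10 CPM (SD, n = 4) and exact two-sided permutation p = 0.0571, and without W4 p = 0.1, the smallest possible. Chac1, which degrades glutathione, was at 2.94, 4.08 and 4.03 CPM for W1 to W3, 5.98 CPM for W4, 6.76, 6.97 and 1.85 CPM for D1 to D3 and 8.66, 3.95 and 2.91 CPM for H1 to H3. Its groups overlapped, with exact two-sided permutation p = 0.571 and, without W4, p = 0.4. Emc9, a subunit of the ER membrane complex that inserts membrane proteins, was at 15.6, 13.2 and 12.9 CPM for W1 to W3, 16.7 CPM for W4, 15.8, 15.9 and 12.5 CPM for D1 to D3 and 19.0, 19.8 and 18.2 CPM for H1 to H3 and gave 0.10 ± 0.13 (adjusted p = 0.533) without W4.

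**Figure D2:**
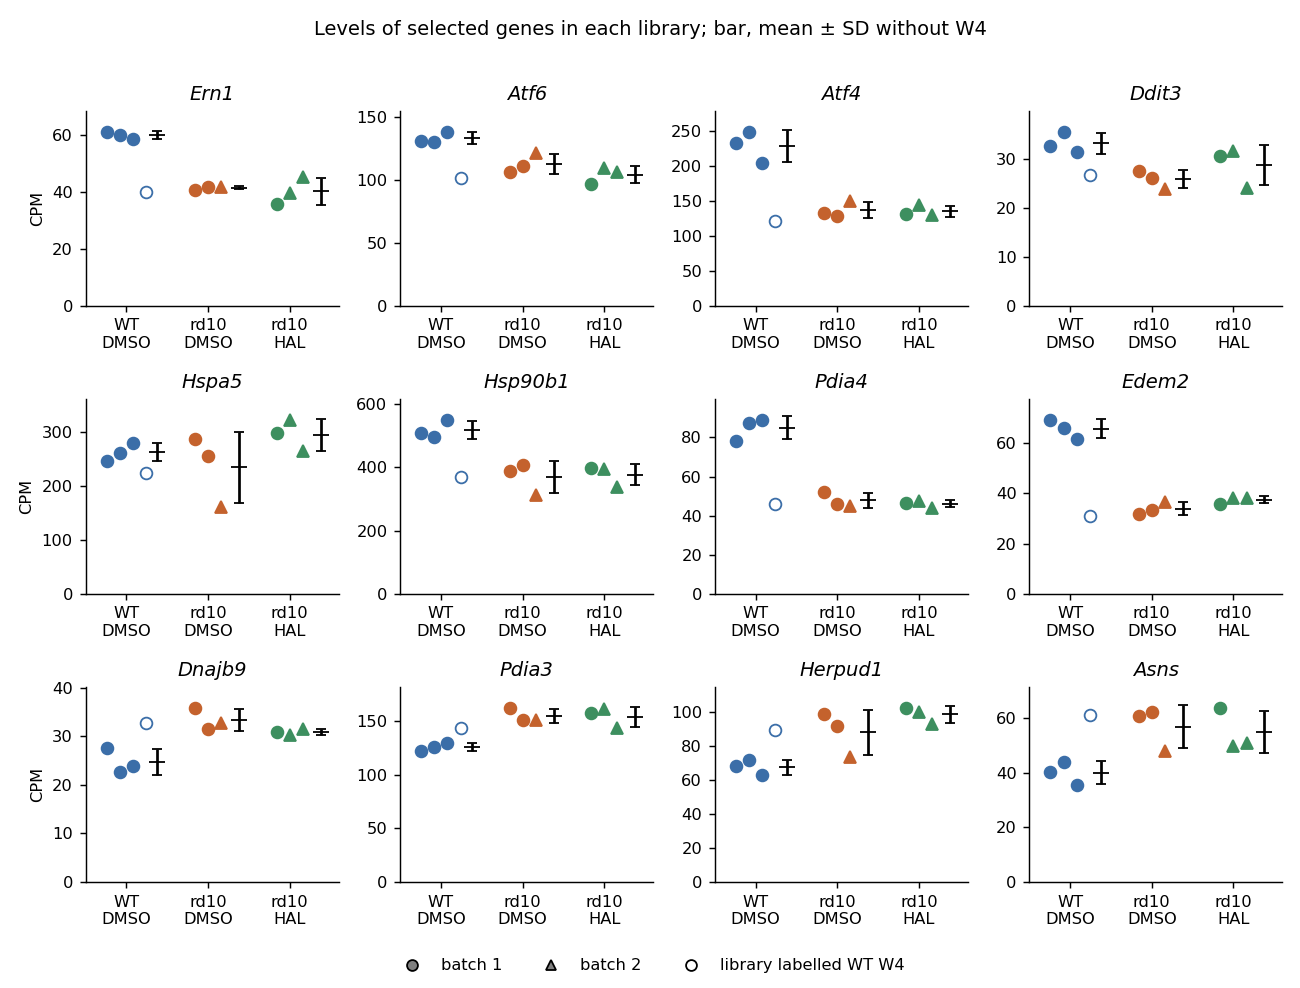
CPM of 12 genes in each library by group, with circles for batch 1, triangles for batch 2, an open circle for W4, and a bar with the mean ± SD of each group without W4. Ern1, Atf4, Pdia4 and Edem2 are separated between W1 to W3 and all rd10 libraries, Herpud1 and Asns are higher in rd10, and Hspa5 is low in D3 alone.

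The 6 rd10 libraries together did not overlap with W1 to W3 in 19 of the 36 genes, where 63.7% of 11702 genes did not. In 17 of the 18 called genes H1 to H3 also lay beyond W1 to W3 on the side of the DMSO libraries, Ddit3 being the exception, as they did in 96.1% of the 7280 genes called. D3, of batch 2, was the lowest rd10 library in 18 of the 36 genes (33.8% of all genes), and without both W4 and D3 the test called 23 of the 36, 8 higher and 15 lower, where 72.3% of 11698 genes were called. Canx, Hyou1 and Sesn2 were then also higher and Edem3 and Vcp also lower. Scaling by library size alone, without W4, moved the median of all genes to 0.19 and that of the 36 to 0.09, and called 10 higher and 4 lower, where 46.2% of all genes were higher and 17.4% lower, so the balance of directions depends on the scaling. Of the 18 genes called above, 9 were called under that scaling too, and Atf6, Ddit3, Hsp90b1, Dnajb11, Creld2, P4hb, Syvn1, Edem1 and Derl2, all lower, were not, at adjusted p from 0.0528 to 0.958.

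Levels per kilobase, which allow genes to be set beside each other, ran from 4.66 CPM per kilobase for Edem1 to 184 CPM per kilobase for Hsp90b1 in W1 to W3. In the 6 rd10 libraries Edem1 was the lowest among those with a length, at 3.58, and Calr the highest, at 147 CPM per kilobase. Atf4 went from the third place, with 132 CPM per kilobase in W1 to W3, to the sixth, with 78.6 CPM per kilobase in rd10. Edem2 went from 34.6 to 18.8 and Pdia4 from 35.4 to 19.6 CPM per kilobase. Pdia6 has no such level here because most of its counts lay on transcripts absent from the reference used.

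The other genes of these pathways, 174 genes in 7 lists, held 41 higher and 38 lower calls without W4, 45.4% of them, and none with W4. The list of further ATF4 and CHOP targets had 16 higher and 4 lower of 28 without W4, beside 32.3% and 29.9% of all genes, with a median of 0.59 that was 0.38 with W4. The log2 differences of single genes that follow are all without W4. Nupr1, a stress-induced chromatin protein, measured 4.17, 4.64 and 5.72 CPM for W1 to W3, 21.6 CPM for W4, 20.8, 21.5 and 23.4 CPM for D1 to D3 and 23.6, 17.2 and 18.9 CPM for H1 to H3, and Slc7a5, which imports leucine and other large amino acids, 51.3, 46.6 and 43.8 CPM for W1 to W3, 81.4 CPM for W4, 97.1, 89.2 and 99.0 CPM for D1 to D3 and 91.6, 92.6 and 91.8 CPM for H1 to H3. Both were higher in every rd10 library than in W1 to W3. Ddit4, an inhibitor of mTORC1, and Vldlr, a lipoprotein receptor, were lower, with log2 differences of -1.28 and -1.21. The markers of Müller glia, which express several amino acid transporters and synthesis enzymes, were also higher in rd10 as given above, and the part of those cells was not tested.

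Each of the 6 further lists held a smaller share of calls than the 62.2% of all genes. The other genes of ER folding and oxidation had 12 higher and 8 lower of 34, with a median of 0.07. Pdia5, a disulfide isomerase, had a log2 difference of -2.94, at 43.3, 44.6 and 44.2 CPM for W1 to W3, 5.13 CPM for W4, 5.53, 4.16 and 7.87 CPM for D1 to D3 and 3.89, 7.21 and 5.69 CPM for H1 to H3. That was a greater decrease than that of any gene of the main list, with W4 again among the rd10 libraries. Tmx1, a membrane-bound isomerase, had -0.57, and the higher genes included Fkbp10, a prolyl isomerase for collagen, at 1.45 and the calcium-binding Rcn2 at 0.81. Further genes of ER-associated degradation had 4 higher and 11 lower of 31, with the ligase Rnf5 at -0.63, the lectin Erlec1 at -0.65 and the mannosidases Man1a and Man1c1 at 1.17 and 1.13. Translocation and N-glycosylation at the ER had 2 higher and 7 lower of 32, with the oligosaccharyltransferase subunits Rpn1 at -0.39 and Ddost at 0.21, the translocon partner Sec63 at -0.36 and the receptor subunit Srpr at 0.27. The other 9 subunits of the ER membrane complex had 3 lower, with Emc6 at -0.49 and Emc1 at -0.25. Further sensors, activators and eIF2B subunits had 5 higher and 3 lower of 21, with the ER-bound factor Creb3l2 at 1.09, the eIF2alpha kinase Eif2ak2 (PKR) at 0.94, Tmbim6 at -0.32 and Traf2, an adaptor of IRE1, at -0.24. Cytosolic aminoacyl-tRNA synthetases had 2 higher and 2 lower of 19, with Qars at -0.72, Farsa at -0.68, Yars at 0.34 and Wars at 0.25.

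The second comparison asked whether halofantrine changed the list in rd10 retina. None of the 36 genes was called, and neither was any other gene (0% of 11692). The smallest adjusted p of the 36 was 0.883 by edgeR, and neither DESeq2 nor limma-voom called any of them. At an unadjusted p under 0.05 there were 2 of the 36, Emc9 and Edem1, where 4.76% of all genes were. The median log2 difference was 0.02 and, without D3, 0.00091, beside -0.0045 over all genes, and the 36 ranged from -0.23 (Edem1) to 0.36 (Emc9). The standard errors of the 36 ranged from 0.06 to 0.20 on the log2 scale, with a median of 0.08, which is the precision of these 3 against 3 libraries.

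Emc9, with the values above, was higher in each of H1 to H3 than in each of D1 to D3, with a log2 difference of 0.36 ± 0.11 (unadjusted p = 0.0149 and adjusted p = 0.883 from edgeR). Edem1 was lower in each, with a difference of -0.23 ± 0.09 (unadjusted p = 0.0361 and adjusted p = 0.883 from edgeR). Dnajb9 was the only other gene of the 36 whose groups did not overlap, with H below D and -0.12 ± 0.07 (unadjusted p = 0.162 and adjusted p = 0.883 from edgeR). These 3 of 36 compare with 13.1% of 11702 genes whose groups did not overlap. Hspa5 gave 0.33 ± 0.20 (unadjusted p = 0.142 and adjusted p = 0.883 from edgeR) and Creld2 0.30 ± 0.17 (unadjusted p = 0.115 and adjusted p = 0.883 from edgeR), with overlapping groups. Without D3 they were at 0.13 and 0.14, and Xbp1 moved from 0.19 to 0.01. For the sensors and factors the differences were -0.05 for Ern1, -0.03 for Eif2ak3, -0.12 for Atf6, -0.02 for Eif2ak4, 0.19 for Xbp1, -0.03 for Atf4 and 0.15 for Ddit3, each within 2 standard errors of 0.

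Atf3, from transcripts, was lower in each H library than in each D library, at 5.25 ± 0.56 CPM (SD, n = 3) against 6.98 ± 1.09 CPM (SD, n = 3), with exact two-sided permutation p = 0.1, the smallest that these libraries allow. Sdf2l1, Trib3 and Chac1 overlapped, with exact permutation p of 0.3, 0.3 and 1. The share of Xbp1-201 was 1.23 points lower under halofantrine, with exact permutation p = 0.5. Only H2, at 74.6%, lay below D1 to D3, while H1 and H3 lay within their range. None of the 174 other pathway genes was called, and 6 had an unadjusted p under 0.05, where 4.76% of all genes did.

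Each batch holds both treatments, and with batch as a term 8 of the 36 had an unadjusted p under 0.05, 6 higher (Creld2, Emc9, Herpud1, Hspa5, Syvn1 and Xbp1) and 2 lower (Atf6 and Edem1), where 16.7% of all genes did. None passed adjustment, with a smallest adjusted p of 0.268. Hspa5 was then at 0.49 ± 0.17 (adjusted p = 0.268) and Creld2 at 0.45 ± 0.12 (adjusted p = 0.268). Within a batch the difference rests on a single library of one treatment, H1 in batch 1 and D3 in batch 2. In batch 1, H1 exceeded the mean of D1 and D2 by a log2 difference of 0.14 for Hspa5, 0.26 for Creld2 and 0.12 for Xbp1. In batch 2, H2 and H3 exceeded D3 by 0.86, 0.67 and 0.58. The difference of the halofantrine effect between batches had an unadjusted p under 0.05 for 7 of the 36 by edgeR, near the 18.4% of all genes, and passed adjustment for none, the smallest adjusted p being 0.116, for Sesn2. D3 is the shallowest of the 10 libraries and the single DMSO library of batch 2, so that what is particular to D3 and an effect of halofantrine in batch 2 cannot be told apart.

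**Figure D3:**
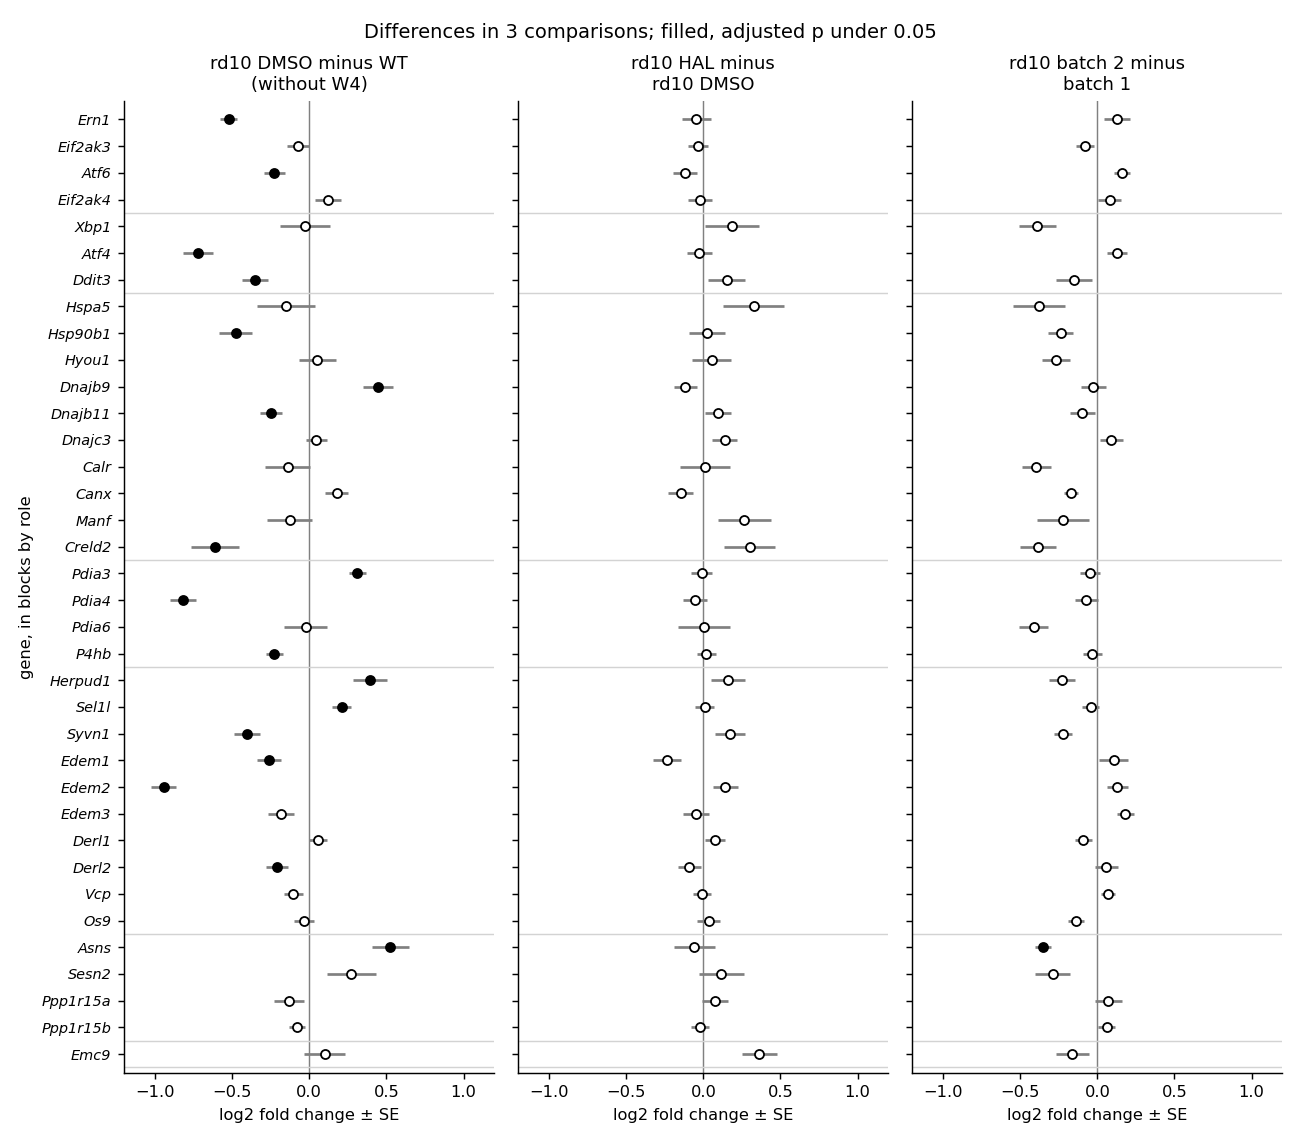
Log2 fold change ± SE of the 36 genes for rd10 DMSO minus WT without W4, rd10 HAL minus rd10 DMSO, and rd10 batch 2 minus batch 1, with filled points at an adjusted p under 0.05. The left panel has 18 filled points, the middle panel has none and the right panel has 1, Asns.

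The third comparison set the rd10 libraries of batch 2 (D3, H2 and H3) against those of batch 1 (D1, D2 and H1), with treatment as a term. What the batches stand for is not stated. Those of batch 1 share a set name, while batch 2 joins the set of H2 and H3 with that of D3. Asns was lower in batch 2, with a log2 difference of -0.35 ± 0.05 (adjusted p = 0.0141), the only call among the 36, where 4.78% of 11692 genes were called. At an unadjusted p under 0.05, 12 of the 36 were lower (Asns, Calr, Canx, Creld2, Herpud1, Hsp90b1, Hyou1, Os9, Pdia6, Sesn2, Syvn1 and Xbp1), against 14.6% of all genes, and 2 were higher (Atf6 and Edem3), against 13.0%. Without D3 the lower genes were 4 (Asns, Canx, Pdia6 and Syvn1), against 6.85% of all genes, and the higher ones 2 (Edem1 and Ern1), against 8.35%. The median log2 difference of the 36 was -0.09, beside -0.01 over all genes, and without D3 it was -0.03. Without D3 the remaining DMSO libraries are all in batch 1, so every batch difference without D3 is that of H2 and H3 against H1 alone. H1 is then assumed to vary like the others. The sum of rod markers was 13494, 11381 and 9615 CPM in D3, H2 and H3 and 5133, 5296 and 4879 CPM in D1, D2 and H1. The cone sum was also higher in batch 2 (2707 to 2948 against 2264 to 2420 CPM). The sums of bipolar cells (2741 to 3027 against 3172 to 3285 CPM), endothelium (495 to 617 against 620.0 to 679 CPM), amacrine and ganglion cells (2819 to 3155 against 3156 to 3284 CPM) and microglia (234 to 254 against 255 to 277 CPM) were lower in batch 2 without overlap. The gap was narrow for all of these but the bipolar cells. The part of these cells was not tested.

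The 12 lower genes include 5 of the 10 chaperones, co-chaperones and lectins (Calr, Canx, Creld2, Hsp90b1 and Hyou1) and 1 of the 4 disulfide isomerases (Pdia6). Of all genes 14.6% were lower, and these shares were not tested. Without D3, Canx and Pdia6 alone of these 6 stayed at an unadjusted p under 0.05. Calr held 333, 321 and 329.7 CPM in batch 1 and 224, 302 and 254 CPM in batch 2, a difference of -0.40 ± 0.09 (adjusted p = 0.0583). Pdia6 held 106, 93.7 and 103 CPM and 68.8, 89.8 and 77.4 CPM, a difference of -0.41 ± 0.09 (adjusted p = 0.0526). In both genes the batches did not overlap and D3 was the lowest, and both adjusted p-values missed the threshold. Hspa5 overlapped, H2 being the highest of its 6 libraries and D3 the lowest, with -0.38 ± 0.17 (adjusted p = 0.19). Chac1, from transcripts, was lower in every batch 2 library, at 2.90 ± 1.05 CPM against 7.46 ± 1.04 CPM (SD, n = 3 each), with exact two-sided permutation p = 0.1, the smallest possible.

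The calls among the 174 other pathway genes were 4.02% of them, near the 4.78% of all genes. Of these 2 were higher in batch 2, Srp54a and Vldlr, both at 0.32, and 5 were lower, among them Slc1a4 at -0.50, Wfs1 at -0.44, Mars at -0.33 and Slc6a9 at -0.30.

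The count turned on single libraries. Without D3 none of the 36 was called, where 0.753% of all genes were, and Asns was at -0.34 ± 0.06 (adjusted p = 0.0713), and Hspa5 moved to -0.02. Without H1 the batch difference is that of D3 alone against D1 and D2, D3 being assumed to vary like the others, and it gave 12 calls, 11 lower and Edem3 higher, where 22.5% of all genes were called, with Hspa5 at -0.75 ± 0.13 (adjusted p = 0.0129) and Xbp1 at -0.63 ± 0.11 (adjusted p = 0.0138). D1, D2 or H3 left out gave none, and H2 left out gave 2, Calr and Pdia6, where 1.85% of all genes were called. For the fits without D1, D2 or H3 the share of all genes called is not given here, so their counts say nothing particular to the list. DESeq2 on all 6 libraries called 12.2% of all genes and 7 of the 36, all lower: Asns, Calr, Canx, Hsp90b1, Hyou1, Pdia6 and Xbp1.

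Of the 8 genes with ERSE in the promoter, 7 were lower in batch 2, with a median log2 difference of -0.31, and Dnajc3 was at 0.09. The 23 genes of the table with a promoter but no ERSE had a median of -0.04, 14 of them lower and 9 higher. Dnajb11 and Herpud1, which hold ERSE-II, are counted among these 23, at -0.10 and -0.23. Without D3 the medians were -0.16 and -0.02, with 7 of 8 and 14 of 23 lower. In the halofantrine comparison with a batch term the same 8 genes had a median of 0.16 and the other 23 a median of 0.03, but both contrasts contain D3 and are not independent of each other. Without a batch term the halofantrine medians were 0.08 and -0.01. With D3 also left out, the ERSE genes went both ways under halofantrine. Hspa5, Dnajc3, Creld2 and Syvn1 were higher, at 0.13, 0.15, 0.14 and 0.09. Hsp90b1, Calr, Canx and Pdia6 were lower, at -0.08, -0.14, -0.20 and -0.14. For rd10 DMSO against WT the medians of the ERSE genes and the others lay closer, at -0.15 and -0.10 without W4 and -0.12 and -0.07 with it. This grouping was made after the values had been seen and carries no test.

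**Figure D4:**
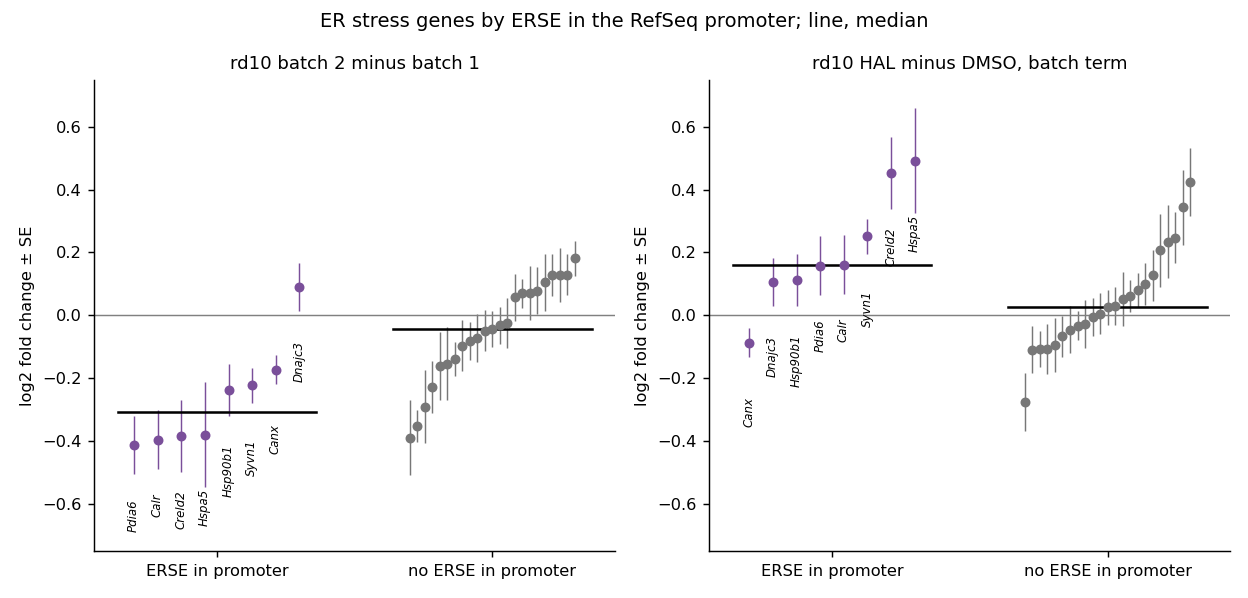
Log2 fold change ± SE of the genes with ERSE (8 genes) and without it (23 genes) in the RefSeq promoter, for rd10 batch 2 minus batch 1 on the left and rd10 HAL minus DMSO with a batch term on the right, with a line at each median. On the left the medians are -0.31 and -0.04, and on the right 0.16 and 0.03. Both contrasts contain D3.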

How the data were processed

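The members and lists were chosen with earlier results of these data known. Strand-specific libraries were made from poly(A) RNA, and the authors ran Kallisto against Ensembl mouse transcripts (version 115, GRCm39) and imported them with tximport. They deposited estimated counts per gene (11702 genes) and per transcript (275112), and CPM values, a signal made from those gene counts with 1 factor per library, which defined the gene table. The authors' table of fold changes and p-values for halofantrine was not used.

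Here the estimated counts were rounded, filtered by filterByExpr, TMM-scaled and tested in edgeR 4.0.16 (quasi-likelihood, R 4.3.3) over all genes with Benjamini-Hochberg adjustment. Adjusted p under 0.05 was called. Printed CPM are after TMM over the 10 libraries, and genes known from transcripts alone were divided by the same library sizes. Standard errors come from the F statistic. Exact permutation tests were two-sided over libraries. Fits were tested on simulated data. All 40 genes are accounted for: values in every library are given for Hspa5, sensors, kinases, transcription factors and called genes, and for halofantrine also for genes with an unadjusted p under 0.05 or groups that do not overlap. The 2 genes with the smallest p per direction were taken from each further list. Alternatives were other scaling and filters, DESeq2 1.42.0, limma-voom 3.58.1, a batch term, all 10 libraries in one fit and each library left out. Symbols matched 11492 identifiers. Promoters are from RefSeq (GRCm38.p6). Depth was 15512212 to 38160436 counts per library.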

Additional observations from a re-analysis of the deposited data

Results flagged for a closer look

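In the 4 libraries labelled WT, of which W4 has Pde6b and rod marker levels that go against its label, the levels of Ern1, Creld2 and Syvn1 each had 1 library far from the others. The gap from W4 to the nearest of W1 to W3 was 0.879 of the whole range for Ern1, 0.946 for Creld2 and 0.906 for Syvn1. W4 was the distant library in all 3, and 3 of 40 results tested were marked, where chance marks about 1 in 20. The marks share W4 and are not independent, so their count cannot be judged against that rate. W4 lay within the range of W1 to W3 in 3 of the 36 genes.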

How the results depend on the processing

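No paired analysis was possible because the labels do not pair the libraries of different groups: replicate numbers were given in accession order and name a library only. In rd10 DMSO against WT, 0 members were called with all 7 libraries, 1 by DESeq2, and 0 to 18 with 1 library left out, the 18 being without W4. Chosen after seeing the data, the fits without W4 called 18 with RLE size factors, 14 with library size only, 19 by DESeq2, 18 by limma-voom, and 23 without W4 and D3. The share of all genes called was 63.6% with library size only and 72.3% without W4 and D3, beside 62.2% in the TMM-scaled fit without W4. It is not given here for RLE, DESeq2 and limma-voom without W4. With library size only and all 7 libraries, Atf6, Edem1 and Derl2 reversed, to log2 differences of 0.019, 0.00997 and 0.014. In batch 2 against batch 1, library size only called 2 members, DESeq2 7 and the fit of all 10 libraries 0, against 1, and with 1 library left out 0 to 12. For the batches the share of all genes called was 4.78% in the main fit and 12.2% by DESeq2. It is not given here for library size only or for all 10 libraries. The difference of the Xbp1-201 share between halofantrine and DMSO ran from -1.89 to 0.00087 percentage points with 1 library left out. The causes were not tested. In the halofantrine comparison no alternative called a member. Over the alternatives run for single called or named members, 257 log2 differences of rd10 DMSO against WT kept their direction and side of the threshold. Another 100 passed it where the fit of 7 libraries had not, and the 3 above reversed. The 100 all came from the fits that leave out W4, except Pdia3 by DESeq2 with all 7 libraries (adjusted p = 0.0493). They repeat 1 choice, that of leaving out W4. For the batches 171 kept both, 19 passed it and 6 no longer did, and for halofantrine 56 kept both.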
